A study of Rattus norvegicus with 70 samples.

Results

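The 1204 regions described here are the promoter regions of the rat olfactory receptor genes, chosen as every region whose gene symbol begins with Olr and a digit, out of 17174 regions around transcript starts. They carried 1202 symbols, because Olr1845 and Olr908 each stood at 2 places, and they made up 7.01% of all regions. All were 5625 bp long, so their levels can be compared without a correction for length. Methylated DNA was captured from liver with a methyl-binding protein (MBD sequencing) and read on a SOLiD 4 sequencer, which reports how much methylated DNA lies over a region and not what share of the copies is methylated.

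Olfactory receptors are G protein-coupled receptors of the sensory neurons of the nose, and they form the largest gene family of mammalian genomes. Their genes stand in clusters on many chromosomes, each neuron transcribes a single receptor allele, and their promoters are known to be poor in CpG, the dinucleotide that carries most methylation in mammals. The number of copies of individual receptor genes is known to vary between individuals in mammals. In liver the receptors have no known sensory role, and transcription was not measured here, so that the genes are silent is background and not a result.

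The rats were of the outbred stock Crj:CD(SD)IGS, and 70 libraries fell into 14 groups of 5, with DNA from 5 livers in each group. The initiators were diethylnitrosamine (DEN), which alkylates DNA, at 3 or 30 mg/kg, thioacetamide (45 mg/kg), methapyrilene (100 mg/kg) and acetaminophen (1000 mg/kg). Each was given for 1 or 2 weeks, with 1 week for the higher DEN dose because of body weight loss. After 2 weeks without treatment, phenobarbital, a tumour promoter of rat liver, was given at 500 ppm in the drinking water. The promoted control received 0.5% methylcellulose and then phenobarbital, and the water control received 0.5% methylcellulose and then water. Liver was taken at terminal euthanasia, after 6 weeks of promotion, and at partial hepatectomy, after 1 week. The labels put every rat through partial hepatectomy, so all terminal livers, controls included, had regrown. Bulk liver DNA averages over all cell types, so a change in the cells present and a change within cells cannot be told apart, and the tissue cannot be checked by expression. The labels give the strain and no age.

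The sequences below are windows of 5 of these genes, each from 250 bases before to 50 after the start that RefSeq gives. They are on the gene's strand, from build GRCr8. In all 5 the last 50 bases begin with ATG, so that start is the start codon and the window may not hold the promoter. The captured signal was counted over the whole region of 5625 bp, of which a window is a small part. Capitals mark each CpG. Olr1108 (Or8s8 in RefSeq) had the highest level of the family and Olr1104 (Or8s16) the next. Olr799 (Or9a4) and Olr1678 (Or2n1n) had the smallest p in the comparison of libraries that share a number, described further on. Olr379 (Or9q1) was picked after its values were seen, as the tested region with the lowest level among those with no CpG in this window.
Olr1108, chr7:131470561-131470860, plus strand: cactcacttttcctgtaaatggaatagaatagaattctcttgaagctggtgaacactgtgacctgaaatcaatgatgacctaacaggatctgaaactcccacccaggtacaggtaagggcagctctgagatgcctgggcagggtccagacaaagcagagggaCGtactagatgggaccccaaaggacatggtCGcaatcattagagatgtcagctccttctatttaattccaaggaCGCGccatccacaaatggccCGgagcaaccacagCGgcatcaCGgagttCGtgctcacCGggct
Olr1104, chr7:131345924-131346223, minus strand: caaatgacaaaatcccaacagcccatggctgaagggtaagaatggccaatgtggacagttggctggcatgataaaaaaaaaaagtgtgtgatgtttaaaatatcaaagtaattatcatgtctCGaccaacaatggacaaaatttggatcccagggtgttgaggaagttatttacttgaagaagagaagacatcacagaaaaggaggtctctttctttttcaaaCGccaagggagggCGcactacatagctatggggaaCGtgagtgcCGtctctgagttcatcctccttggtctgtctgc
Olr799, chr4:70368050-70368349, plus strand: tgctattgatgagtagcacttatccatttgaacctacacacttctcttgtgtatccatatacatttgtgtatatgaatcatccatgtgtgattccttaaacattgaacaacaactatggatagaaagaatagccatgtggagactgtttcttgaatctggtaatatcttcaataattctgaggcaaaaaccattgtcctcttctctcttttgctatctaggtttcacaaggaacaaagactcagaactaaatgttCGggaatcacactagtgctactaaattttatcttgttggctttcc
Olr1678, chr20:333149-333448, minus strand: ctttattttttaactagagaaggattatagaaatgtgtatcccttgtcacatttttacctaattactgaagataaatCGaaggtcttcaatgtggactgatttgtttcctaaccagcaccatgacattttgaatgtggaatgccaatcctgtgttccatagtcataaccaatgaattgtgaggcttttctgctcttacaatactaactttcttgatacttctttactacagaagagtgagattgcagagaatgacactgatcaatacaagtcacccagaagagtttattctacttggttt
Olr379, chr1:220385200-220385499, minus strand: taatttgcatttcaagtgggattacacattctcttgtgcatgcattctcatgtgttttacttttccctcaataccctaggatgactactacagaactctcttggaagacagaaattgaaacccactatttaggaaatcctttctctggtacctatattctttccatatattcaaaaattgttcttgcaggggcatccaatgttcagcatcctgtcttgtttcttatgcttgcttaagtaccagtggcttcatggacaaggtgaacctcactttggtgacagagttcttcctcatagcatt
The Olr1108 window held 9 CpG and that of Olr1104 held 5. The windows of Olr799 and Olr1678 held 1 each. The mean deposited signal over the 70 libraries was 629 for Olr1108 and 534 for Olr1104, against 62.4 for Olr799, 13.9 for Olr1678 and 1.64 for Olr379.

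The deposited signal is the number of reads in a region scaled to 50 M reads, so 1 read is worth about 1 unit, and a region without a read is listed at 0.01. The scaling totals ran from 42.1 M to 56.6 M, and the regions together held 0.933 M to 1.80 M reads per library. The olfactory receptor regions took 23543 to 36980 of these reads, a share of 1.99% to 3.01%. In 9 libraries under 1% of the 17174 regions were without a read, against 1.60% to 5.39% in the other 61. These 9 are called the evenly covered libraries here. They were promoted-control number 5, DEN 30 mg/kg number 3, thioacetamide number 4, methapyrilene number 3 and acetaminophen number 3 at terminal euthanasia. At partial hepatectomy they were DEN 30 mg/kg numbers 3 and 4, acetaminophen number 5 and water-control number 5. Of the 9, 8 had library numbers between 41 and 60 in the labels. Results that touch them are given with and without them, or the libraries concerned are named.

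The olfactory receptor regions held little captured DNA. Their mean signal over the 70 libraries had a median of 8.60 (quartiles 3.01 and 25.6), against 58.5 (23.9 and 117) for the 15970 other regions. A mean under 10 was found for 654 of the 1204 (54.3%), against 11.1% of the other regions, and a mean over 100 for 66 (5.48%), against 30.4%. The median of the olfactory receptor regions lay below that of the other regions in 70 of 70 libraries. The ratio of the 2 medians averaged 0.141 ± 0.0572 (SD, n = 70 libraries). At least 1 read was present in every library for 556 of the receptor regions (46.2%), against 87.7% of the others.

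No read was found in any library for 9 olfactory receptor regions. These were Olr1525 on an unplaced part of chromosome 10, and Olr883_dup1, Olr883_dup2, Olr910_dup1, Olr910_dup2 and both places of Olr1845 and Olr908 on chromosome 7 and unplaced sequence. Of the 9, 8 shared their coordinates with another of them. The sources used here do not say how reads that fit several places were treated, so near-identical receptor genes may have lost or shared reads.

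Other chemoreceptor families were not all low. The vomeronasal receptors, pheromone receptors of the vomeronasal organ, had a median of 3.74 over 183 regions. The 33 taste receptor regions had 22.8, and the 17 trace amine receptor regions, which serve a small family of amine sensors in the nose, had 127. Keratins, filament proteins of epithelia, skin and hair, had 192 over 43 regions.

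**Figure D1:**
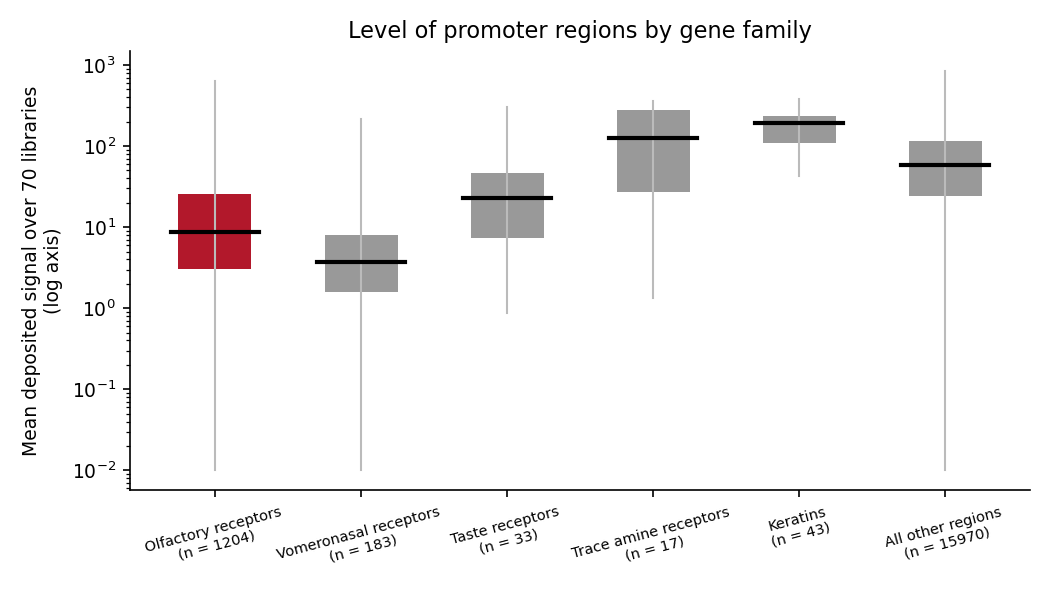
Mean deposited signal over 70 libraries (log axis) for 6 sets of promoter regions. Bars span the quartiles, black lines mark the medians and grey lines run from the lowest to the highest region. The olfactory receptors, at a median of 8.60, lie above the vomeronasal receptors, at 3.74, and below the other sets shown.

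Levels within the family were higher where the window at the RefSeq start held more CpG. A RefSeq promoter of 300 bases was matched to 1003 of the 1204 regions (83.3%) through the transcript accession. The median window held 1 CpG (quartiles 0 and 2, highest 14), against 18 (7 and 26) for the windows of the other regions. None was held by 308 of the receptor windows (30.7%), against 1.77%. The median GC content was 35.3%, against 58.7%. These windows were thus poor in CpG. As they may not hold the promoter and cover 300 of 5625 bp, they cannot show that the promoters or regions are.

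With more CpG in the 300 bases, the median signal of the receptor regions was higher at each step. It was 6.03 for 308 regions with no CpG, 7.66 for 294 with 1, 9.57 for 214 with 2 and 11.4 for 95 with 3. It was 28.7 for 66 regions with 4 or 5, 144 for 19 with 6 to 9 and 232 for 7 with 10 or more. Among the other regions the median was highest, at 103, with 6 to 9 CpG and was 52.7 at 20 or more. Between 0 and 5 CpG the receptor regions had the lower median in each class, for example 6.03 against 16.7 at 0 CpG. Across the 1003 regions, which share libraries and of whose 5625 bp the window covers 300, Spearman's rho between CpG count and level was 0.30, given as a description. Of the 59 regions with a mean over 100 and a promoter entry, 3 had no CpG in the window.

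**Figure D2:**
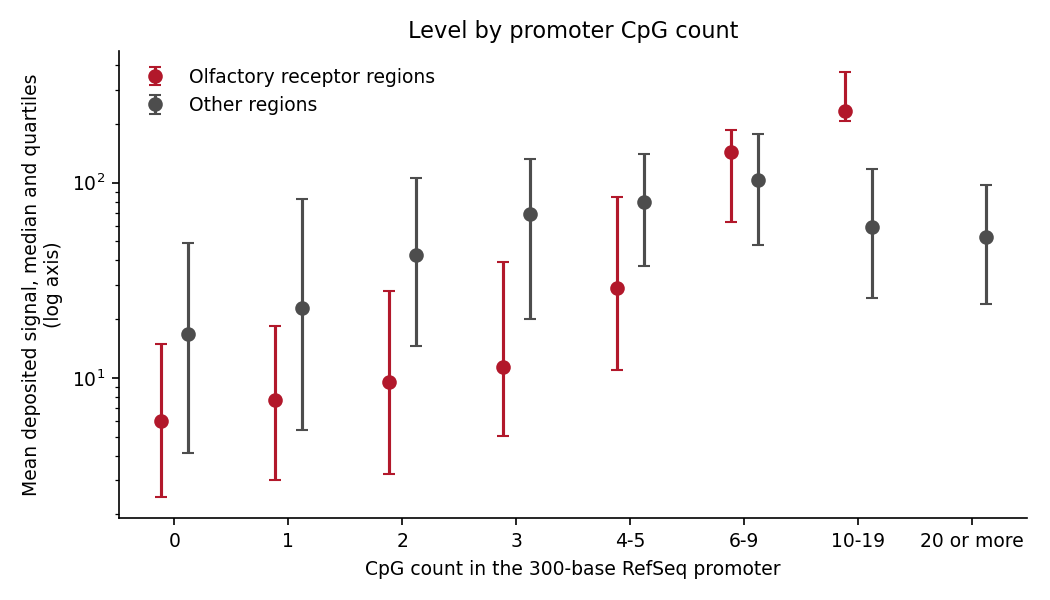
Median and quartiles of the mean deposited signal (log axis) by the number of CpG in the 300-base RefSeq promoter, for olfactory receptor regions (red) and other regions (grey). In the receptor regions the median runs from 6.03 at 0 CpG to 232 at 10 or more, while in the other regions it is 103 at 6 to 9 CpG and lower beyond.

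A pair of short motifs tied to receptor promoters in the mouse were searched in the same windows. The letters TAATTA, the core that Lhx2 and related homeodomain factors bind, stood in 191 of 1002 distinct receptor promoters (19.1%), against 5.35% of all 27457 promoters in the table. The letters CCCNNGGG, the core of the sites of Ebf1 (Olf-1), stood in 11 (1.10%), against 12.7%. Both read the same on either strand, so a match counts for both, and neither was corrected for base composition. A match is a run of letters and not a site, and the windows may not hold the promoter.

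The regions formed 51 chromosome clusters when neighbours up to 1 Mb apart were joined. The 23 clusters with 10 or more regions held 1120 of the 1204, and 14 clusters were a single region. The largest cluster lay on chromosome 3 (file coordinates 68577708 to 74748258) and held 219 regions with a median signal of 6.06. After it came a cluster of 188 on chromosome 1 with a median of 15.7 and one of 109 on chromosome 8 with a median of 11.6. The lowest of the 23 was a cluster of 82 regions on chromosome 7 (2309140 to 8470469), with a median of 1.41 and no region above 82.9. The highest of the 23 was a cluster of 10 on chromosome 9 at 49.6. In 23 of 23 clusters the median was below that of the other genes' regions inside or within 1 Mb of the cluster. For the 82 regions on chromosome 7 that neighbouring median was 49.3, over 50 regions.

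A small cluster held the highest levels of the family. The 6 regions of Olr1104, Olr1105, Olr1106, Olr1107, Olr1108 and Olr1111 on chromosome 7 (137052578 to 137241348) had a median of 454, against 86.2 for 43 neighbouring regions. Olr1108 had 629 ± 139 (SD, n = 70), with 254 in its lowest library and 928 in its highest. Olr1104 had 534 ± 125 and Olr1106 had 495 ± 106, while Olr1107, the lowest of the 6, had 243 ± 56.7. The RefSeq windows of the 6 held 5 to 14 CpG. RefSeq names all of them Or8s genes except Olr1111, which is Or11m3. In 2 more of the 7 clusters with 6 to 9 regions, on chromosomes 5 and 1, the median was also above that of the neighbours, at 90.1 against 70.2 and 39.5 against 32.7. Outside the chromosome 7 cluster of 6 the highest levels were those of Olr1637 (Or6s1) at 499 ± 108 and Olr1638 (Or5au1) at 419 ± 88.5, both on chromosome 15.

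Olr1108 was high in each of the 14 groups. At terminal euthanasia its group mean ran from 575 ± 108 (SD, n = 5) under methapyrilene to 731 ± 116 under DEN 3 mg/kg, with 577 ± 165 in the promoted control, and the water control had 625 ± 19.6. At partial hepatectomy it ran from 564 ± 174 under DEN 30 mg/kg to 708 ± 125 in the promoted control. The low means include evenly covered libraries, and the highest group of each time holds none. DEN 30 mg/kg numbers 3 and 4 at partial hepatectomy had 398 and 405, against 543, 674 and 802 in numbers 1, 2 and 5. At terminal euthanasia methapyrilene number 3 had 400 and promoted-control number 5 had 307, each the lowest of its group. No contrast for Olr1108 passed the test described below.

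Class I and class II receptors can be set side by side within the chromosome 1 cluster. Class I receptors, families 51 to 56 in the RefSeq symbols and akin to the receptors of fish, numbered 128, all in that cluster of 188. They had a median of 26.4 (quartiles 8.42 and 58.2) and a median of 2 CpG per RefSeq window. The 57 class II regions of the same cluster, from families 1 to 14, had a median of 3.47 (1.94 and 14.1) and a median of 1 CpG. No test was made of this. Over all chromosomes the 996 class II regions had a median of 8.28, and 80 regions had no class from their symbol.

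The order of the clusters held across the groups. Over the 23 clusters, Spearman's rho between the group medians of any 2 of the 14 groups was between 0.96 and 0.996. These groups share the regions, so the value is a description and no test. The cluster of 82 on chromosome 7 was the lowest of those drawn in the plot of clusters by group.

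**Figure D3:**
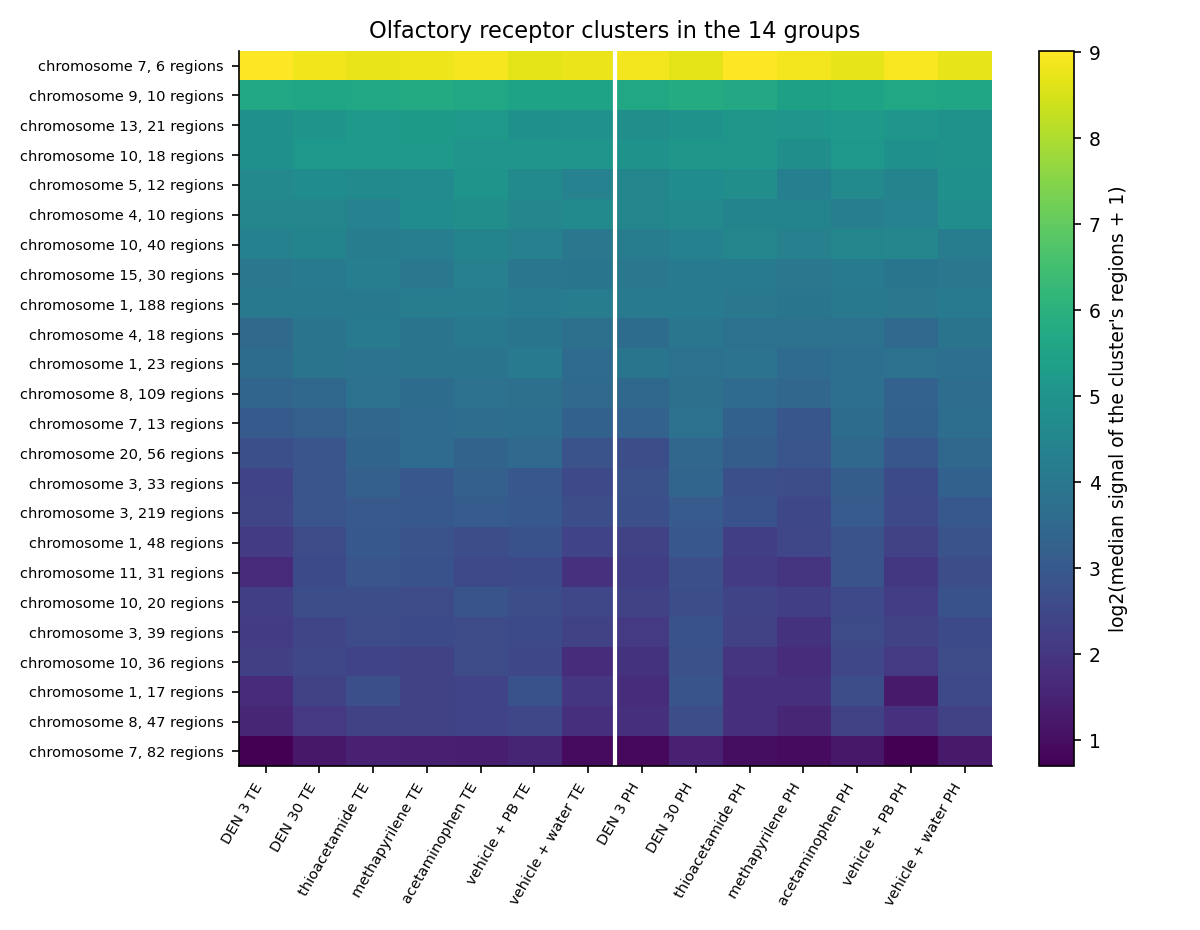
Median signal of each olfactory receptor cluster on a log2(value + 1) scale, for the 23 clusters with 10 or more regions and the chromosome 7 cluster of 6 (top row), in the 14 groups of 5 libraries. Columns left of the white line are terminal euthanasia (TE) and right of it partial hepatectomy (PH). The order of the rows is nearly the same from group to group, and the top row stays highest in every column.

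The level of the family in a library moved with the share of regions without a read. In the 9 evenly covered libraries the median olfactory receptor signal was 14.1 to 19.4, against 4.35 to 10.5 in the other 61, and the ranges did not overlap. The receptor regions took 2.55% to 3.01% of the region reads in the 9, against 1.99% to 2.41% in the 61, and 2.24% to 4.65% of them were without a read, against 6.81% to 26.2%. The median of the other regions did not separate the libraries, at 52.6 to 61.1 in the 9 and 49 to 76.7 in the 61.

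**Figure D4:**
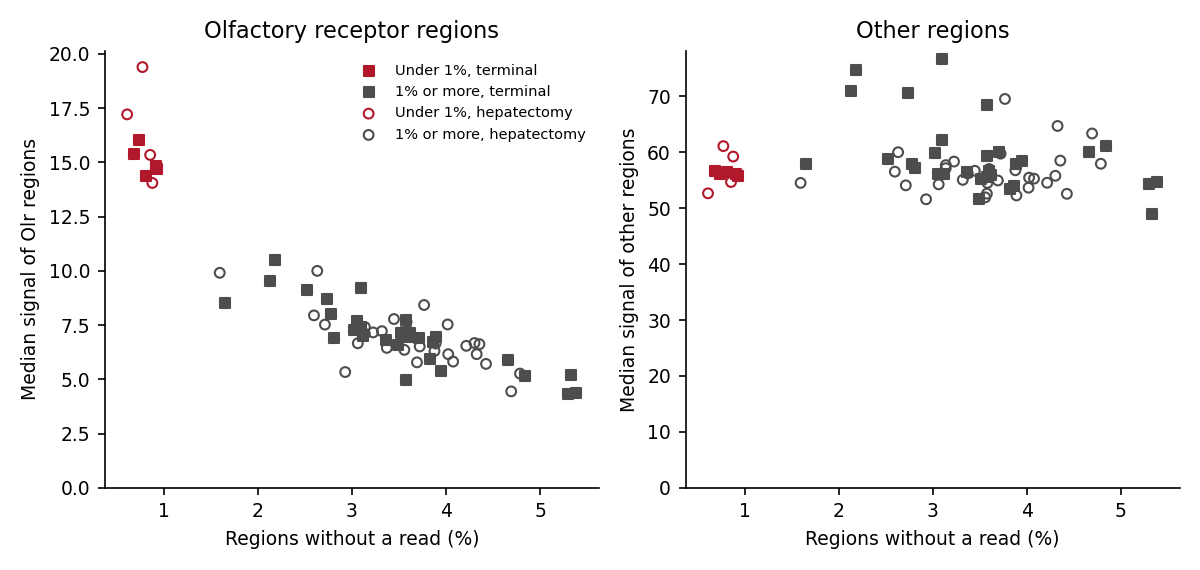
Median deposited signal of the olfactory receptor regions (left) and of the other regions (right) in each of the 70 libraries, against the percentage of all 17174 regions without a read. Red marks the 9 libraries under 1%, squares terminal euthanasia and open circles partial hepatectomy. On the left the red points lie at 14.1 to 19.4 and all others at 10.5 or below, while on the right the colours overlap.

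The difference ran in opposite directions at the 2 ends of the range. Among the 684 receptor regions with a mean under 10 in the 61 libraries, 656 (95.9%) were higher in the 9 evenly covered libraries, with a median log2 difference of 1.51. Among the 67 with a mean of 100 or more, 0 were higher and the median log2 difference was -0.53. The other regions had median log2 differences of 1.46 and -0.53 in the same classes. Olr1108 averaged 358 in the 9 and 669 in the 61, whereas Olr594 averaged 18.7 in the 9 and 2.40 in the 61. How library preparation, capture or the DNA itself bear on this was not tested.

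Of the 5 tested regions with the largest spread over the 70 libraries, 3 were high in these 9. Olr594 (chromosome 3), Olr867 (chromosome 5) and Olr1561 (chromosome 11) averaged 18.7, 19.7 and 13.8 in the 9 evenly covered libraries, against 2.40, 2.64 and 3.66 in the 61. The remaining pair did not: Olr1678 averaged 16.1 in the 9 and 13.6 in the 61, and Olr1174 on chromosome 8 averaged 6.09 and 5.66.

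Group medians of the family overlapped from condition to condition. At terminal euthanasia the mean of the library medians was 6.46 ± 1.46 (SD, n = 5) under DEN 3 mg/kg, 7.65 ± 4.55 under DEN 30 mg/kg, 9.07 ± 3.94 under thioacetamide, 8.95 ± 3.03 under methapyrilene and 9.23 ± 3.23 under acetaminophen. The promoted control had 8.83 ± 4.28, and the water control had 7.11 ± 0.364. At partial hepatectomy it was 7.11 ± 1.77 under DEN 3 mg/kg, 9.85 ± 4.47 under DEN 30 mg/kg, 7.71 ± 1.45 under thioacetamide, 6.68 ± 1.33 under methapyrilene and 8.76 ± 5.97 under acetaminophen. The promoted control had 6.69 ± 1.00, and the water control had 9.08 ± 4.58. Each SD above 3 belongs to a group with at least 1 evenly covered library. Without those 9 libraries the 14 means lay between 5.85 and 7.86.

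The contrasts between treatments asked whether an initiator, its dose or phenobarbital changed single receptor regions. The test took regions in which a signal of 10 was reached in 5 or more libraries, which 778 of the 1204 did at terminal euthanasia and 748 at partial hepatectomy, so 426 and 456 were too low to test. limma on log2(signal + 1), adjusted over all regions tested, called 0 receptor regions in each of the 14 contrasts at an adjusted p of 0.05. It also called 0 of all regions (0%). edgeR and DESeq2 on the recovered reads called 0 receptor regions in each contrast too, while over all regions edgeR called at most 1 and DESeq2 at most 4. At an unadjusted p under 0.05 edgeR gave 9 to 79 receptor regions (1.16% to 10.2%), where all regions gave 2.48% to 9.66%. DESeq2 gave 11 to 91 (1.41% to 11.7%), where all regions gave 2.46% to 10.6%. The smallest limma adjusted p of any receptor region was 0.382, for Olr1347 under DEN 30 mg/kg at partial hepatectomy. The smallest was 0.450 by edgeR and 0.277 by DESeq2, both under DEN 3 mg/kg at terminal euthanasia.

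The counts at an unadjusted limma p under 0.05 lay on both sides of the share over all regions. At terminal euthanasia DEN 3 mg/kg against the promoted control gave 63 of 778 receptor regions (8.10%), where all 16008 regions gave 8.51%. DEN 30 mg/kg against the promoted control gave 29 (3.73%), where all regions gave 3.41%. Thioacetamide gave 17 (2.19%), where all regions gave 2.06%. Methapyrilene gave 14 (1.80%), where all regions gave 2.57%. Acetaminophen gave 20 (2.57%), where all regions gave 2.76%. The promoted control against the water control gave 22 (2.83%), where all regions gave 3.17%. DEN 30 mg/kg against DEN 3 mg/kg gave 34 (4.37%), where all regions gave 3.01%.

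At partial hepatectomy the same counts were taken over 748 receptor regions and 15809 regions in all. DEN 3 mg/kg against the promoted control gave 23 receptor regions (3.07%), where all regions gave 3.17%. DEN 30 mg/kg gave 45 (6.02%), where all regions gave 7.64%. Thioacetamide gave 20 (2.67%), where all regions gave 4.44%. Methapyrilene gave 13 (1.74%), where all regions gave 3.67%. Acetaminophen gave 27 (3.61%), where all regions gave 3.68%. The promoted control against the water control gave 43 (5.75%), where all regions gave 6.28%. DEN 30 mg/kg against DEN 3 mg/kg gave 28 (3.74%), where all regions gave 5.22%. The receptor share was below that of all regions in each of the 7 contrasts there, and that difference was not tested.

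Some of these counts leaned to one side, with 18 of 20 receptor regions higher under thioacetamide and 19 of 23 under DEN 3 mg/kg at partial hepatectomy. Neither group nor the promoted control at that time holds an evenly covered library, and without the 9 the counts were 28 of 32 and 23 of 29. The median log2 differences were 0.10 for thioacetamide, where the other regions had 0.08, and 0.02 for DEN 3 mg/kg, where the other regions had 0.02. At terminal euthanasia 13 of 17 were higher under thioacetamide, 12 of 14 under methapyrilene and 16 of 20 under acetaminophen, and without the 9 libraries 19 of 23, 16 of 20 and 30 of 36. Their median log2 differences were 0.05, 0.10 and 0.12, where the other regions had 0.04, 0.09 and 0.11. Not all of this lean was kept on recovered reads. At partial hepatectomy edgeR had 7 of 14 higher under thioacetamide and 13 of 18 under DEN 3 mg/kg, and DESeq2 had 9 of 17 and 14 of 18. For thioacetamide, methapyrilene and acetaminophen at terminal euthanasia edgeR had 9 of 12, 6 of 11 and 3 of 9. DESeq2 had 9 of 14, 6 of 11 and 5 of 12. Other leans were larger on reads. For DEN 3 mg/kg at terminal euthanasia limma had 35 of 63 lower, edgeR 60 of 79 and DESeq2 74 of 91. Median log2 differences on reads were -0.17 and -0.18, where the other regions had -0.02 and -0.03. For the promoted control against the water control at partial hepatectomy the counts were 22 of 43, 31 of 46 and 43 of 60. In both contrasts only the reference group holds an evenly covered library, number 5. Under DEN 30 mg/kg at partial hepatectomy 36 of the 45 receptor regions were higher than in the promoted control. The median log2 difference was 0.14 over the tested receptor regions and 0.03 over the other tested regions. DEN 30 mg/kg numbers 3 and 4 are evenly covered libraries, with family medians of 15.3 and 14.1, against 7.41, 6.31 and 6.16 in numbers 1, 2 and 5. The promoted control had none, with 5.27 to 7.78. Without the evenly covered libraries 13 of 26 were higher, and the median log2 differences were 0.04 and 0.09. At each time number 5 of every initiator group is a library numbered 61 to 70, and neither control holds one. The scaling totals of these 10 libraries are the same as those of 10 earlier ones, so their scaled levels may be off. The leans above are given with them, and their part in the leans was not tested. Refits without them called 0 receptor regions too.

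Single regions with the smallest unadjusted p are given as values that did not pass. Olr1347 on chromosome 9 had 55, 55.7, 57.5, 88.3 and 35.9 under DEN 30 mg/kg at partial hepatectomy, against 13.7, 22.2, 46.6, 32.7 and 34.8 in the promoted control. The groups overlap in 1 promoted-control library and 1 DEN library. The limma log2 difference was 0.99 ± 0.29 (SE, adjusted p = 0.382). Olr1347 averaged 61.1 in the 9 evenly covered libraries and 35.4 in the 61, and DEN 30 mg/kg numbers 3 and 4 are among the 9.

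Olr107, a class I receptor gene on chromosome 1, was named in 2 contrasts at partial hepatectomy that share the same 5 promoted controls. It had 78.5, 77.1, 59.4, 64 and 52 under DEN 3 mg/kg, 93.7, 90.0, 91.1, 80.7 and 118 in the promoted control, against 90.0, 62.6, 73.6, 35.8 and 35.4 in the water control. DEN 3 mg/kg lay below the promoted control without overlap, with a log2 difference of -0.52 ± 0.21 and a limma adjusted p of 1.00. The lowest promoted-control library lay below the highest water-control library, with a log2 difference of 0.75 ± 0.21 and a limma adjusted p of 0.578.

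Olr422 on chromosome 3 showed the same arrangement at terminal euthanasia. It had 6.25, 16.5, 9.20, 1.80 and 15.2 under DEN 3 mg/kg, 21.8, 22.6, 33.5, 18.4 and 27.5 in the promoted control, against 11.2, 10.1, 9.01, 3.47 and 6.6 in the water control. The promoted control was the high group in both contrasts, which share it. The limma log2 differences were -1.49 ± 0.46 for DEN 3 mg/kg (adjusted p = 0.579) and 1.56 ± 0.46 for the promoted control against the water control (adjusted p = 1.00).

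Olr1668 on chromosome 20 had 161, 169, 164, 149 and 189 under DEN 3 mg/kg at terminal euthanasia, against 148, 140, 95.3, 106 and 50.4 in the promoted control. The groups did not overlap, and the lowest value came from the evenly covered promoted-control number 5. The log2 difference was 0.71 ± 0.22 (limma adjusted p = 0.579).

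Olr12 on chromosome 1 had the smallest unadjusted p of all, 0.000454, with a limma adjusted p of 1.00. It had 28.5, 18.6, 21.1, 21.8 and 23.2 under methapyrilene at terminal euthanasia, against 0.991, 11.9, 0.01, 19.6 and 11.4 in the promoted control. The groups overlapped in 1 promoted-control library, and the log2 difference was 2.01 ± 0.55.

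The other regions chosen in the same way did not pass either. Olr1520, Olr1378, Olr62, Olr1199 and Olr675 were higher in the treated group without overlap. For Olr675 at terminal euthanasia that meant 2.18, 2.17, 18, 7.25 and 4.23 under DEN 30 mg/kg, against 0.01, 1.18, 0.01, 0.01 and 0.01 under DEN 3 mg/kg, or a few reads each. Olr1257, Olr830, Olr1344, Olr799, Olr1454, Olr586, Olr1461, Olr399, Olr1337, Olr1437, Olr297, Olr168, Olr674, Olr728 and Olr937 overlapped. Their limma adjusted p lay between 0.614 and 1.00.

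The times were compared next. Over the 7 conditions, terminal euthanasia minus partial hepatectomy gave 0 of 905 receptor regions by limma, where 11 of all 16385 passed (0.0671%), and 0 by edgeR and by DESeq2. Limma after quantile normalization gave 1, Olr655. At an unadjusted p under 0.05 limma without that step gave 31 receptor regions (3.43%), where all regions gave 6.59%. Of these 31, 17 were lower at terminal euthanasia. On reads edgeR had 29 of 31 lower, where 844 of all 16385 regions were under 0.05. DESeq2 had 35 of 38 lower, where 897 of all 16385 were. Median log2 differences of the receptor regions on reads were -0.02 in each. Olr57 had the smallest p among those higher at terminal euthanasia, with a range of 6.94 to 48 and a median of 25, against 4.82 to 45.1 and a median of 18.2 at partial hepatectomy (limma adjusted p = 0.323). Olr655 had the smallest p among those lower, with 4.75 to 25.4 and a median of 8.69, against 4.21 to 25.1 and a median of 13.2 (limma adjusted p = 0.385). The difference of each of the 7 contrasts between the times was also tested, and limma called 0 receptor regions, with 9 to 56 of 905 at an unadjusted p under 0.05 (0.994% to 6.19%), where all regions gave 1.81% to 6.70%.

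A comparison of same-numbered libraries did call receptor regions. The titles number the libraries of each group from 1 to 5 at both times, and a limma F test over 35 condition and number pairs asked whether libraries with the same number share a level at both times, within their groups. The labels do not say that a number is 1 rat. Library numbers were put into 4 blocks here, 1 to 20, 21 to 40, 41 to 60 and 61 to 70, and the labels do not say what these stand for. The 2 libraries of a pair always lie in the same block. A level shared through the block and one shared through the number are not told apart without a block term. The test called 32 of 905 receptor regions (3.54%), where it called 230 of all 16385 (1.40%). Thus 13.9% of the called regions were receptor regions, which were 5.52% of the regions tested. The 32 stood in 14 clusters and had a median level of 21.2, against 13.9 for all tested receptor regions.

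The libraries largely matched by number when regions were chosen in other conditions. For each condition, regions called in the other 6 were taken, and each partial hepatectomy library was correlated with the 5 terminal libraries of its condition. The best match bore the same number in 33 of 35 cases over all called regions (146 to 494 regions). Over the receptor regions among them (16 to 38) it did so in 26 of 35. The exceptions over all called regions were water-control number 4, with r = -0.04 to its own number and 0.34 to number 5, and acetaminophen number 5, with 0.07 to its own number and 0.52 to number 3. These correlations run across regions that share libraries and are given without a test, and same-numbered libraries also share a block of library numbers. In acetaminophen the evenly covered library was number 3 at terminal euthanasia and number 5 at partial hepatectomy.

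The count depends on those numbers. Acetaminophen number 3 matched its own number, at r = 0.11, but was also the best match of number 5. It, water-control number 4 and acetaminophen number 5 were picked after seeing the match, so a higher count without them is no support. Without them the test called 53 receptor regions (5.86%) and 666 regions in all (4.06%). The 32 were all among the 53. With the 4 blocks of library numbers as a covariate it called 11 receptor regions (1.22%) and 108 in all (0.659%), and 10 of the 32 were among the 11. Without the evenly covered libraries it called 35 receptor regions (3.87%), where all regions gave 1.97%. Without the 10 libraries numbered 61 to 70, whose scaling totals are the same as those of 10 earlier libraries, it called 27 (2.98%), where all regions gave 1.22%. Without the libraries of replicate number 1 it called 11 (1.22%, where all regions gave 0.647%), and without those of number 2 it called 14 (1.55%, where all regions gave 0.879%).

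By level, receptor regions were called in 10 of 355 with a mean under 10 (2.82%), where other regions gave 1.01%, and in 5 of 192 with a mean of 10 to 20 (2.60%), where other regions gave 1.51%. They were called in 11 of 210 with a mean of 20 to 50 (5.24%), where other regions gave 1.11%. They were called in 4 of 82 with a mean of 50 to 100 (4.88%), where other regions gave 1.93%, and in 2 of 66 at 100 or more (3.03%), where other regions gave 0.865%. No test was made of these shares, and regions of a cluster are neighbours and not independent.

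Olr799 (Or9a4) on chromosome 4 (68164223 to 68169848, plus strand) had the smallest p. Its signal ran from 4.45 to 121 over the 70 libraries with a median of 61.6. Methapyrilene number 5 had 6.62 at terminal euthanasia and 4.45 at partial hepatectomy, and DEN 30 mg/kg number 4 had 9.32 and 17.1. These were the 2 lowest numbers at both times. At the top, DEN 3 mg/kg number 5 had 121 and 79.0, and promoted-control number 4 had 80.7 and 120. Within groups the correlation of the same-numbered libraries was r = 0.83 over 35 pairs, and the limma adjusted p was 6.8e-13. Olr799 also had the smallest p among regions lower under methapyrilene at partial hepatectomy, where it did not pass (71.5, 56.9, 30.0, 77.2 and 4.45, against 93.7, 41.1, 99.6, 120 and 101 in the promoted control).

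Olr1678 (Or2n1n) on chromosome 20 (247632 to 253257, minus strand) was without a read at both times for 4 numbers. These were DEN 3 mg/kg number 2, DEN 30 mg/kg number 5, methapyrilene number 5 and promoted-control number 3. In 2 numbers a read was present at 1 time and not at the other. One was water-control number 4, with 53.2 at terminal euthanasia and 0.01 at partial hepatectomy, which is a number whose libraries did not match. The highest matched pair was DEN 30 mg/kg number 2, with 44.5 and 38.9. The correlation was r = 0.74 (limma adjusted p = 6.1e-09).

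Olr937 (Or6c214b) and Olr951 both lie in the low chromosome 7 cluster, at 4492232 and 4858039. Olr937 had no read at both times in DEN 30 mg/kg numbers 1 and 2 and promoted-control number 4, and its highest value was 41.1. Olr951 had none at both times in 5 numbers, which were those 3, DEN 3 mg/kg number 1 and acetaminophen number 3. They passed, at r = 0.70 (limma adjusted p = 8.3e-06) and r = 0.71 (limma adjusted p = 0.00213).

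Olr1592 (Or6k6) on chromosome 13 had reads in every library. DEN 3 mg/kg number 1 had 4.17 at terminal euthanasia and 6.79 at partial hepatectomy, while methapyrilene number 2 had 68.7 and 71.3, at r = 0.72 (limma adjusted p = 8.3e-06). Olr1434 (Or2ak6e) on chromosome 10 ranged from 0.957 to 88.5 with r = 0.54 (limma adjusted p = 1.4e-05). Olr129 (Or51b4b) on chromosome 1 and Olr372 (Or10w1) on the same chromosome had r of 0.59 and 0.68, with limma adjusted p of 0.0023 and 0.00397.

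**Figure D5:**
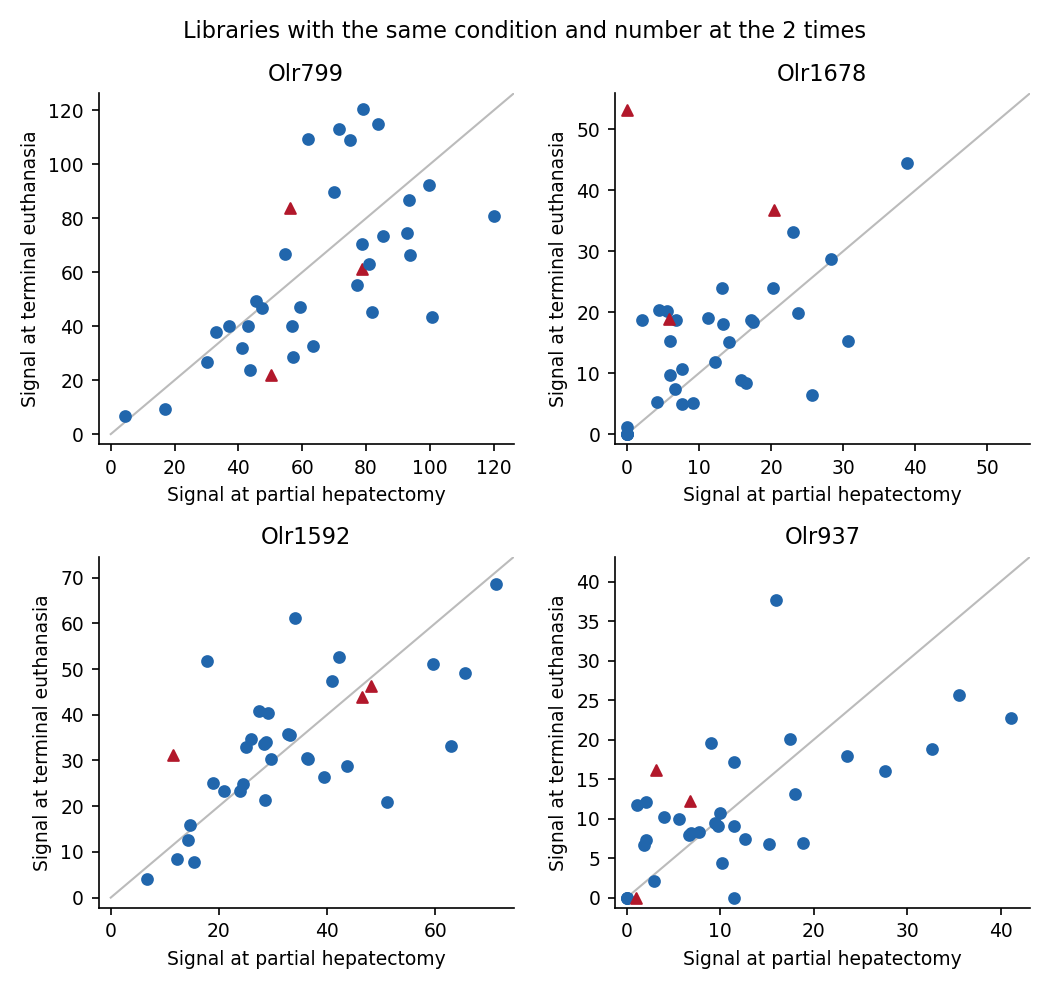
Deposited signal at terminal euthanasia (vertical) against partial hepatectomy (horizontal) for 4 olfactory receptor regions, 1 point for each of 35 condition and number pairs. Red triangles are water-control number 4 and acetaminophen numbers 3 and 5, and the grey line marks equality. The r within groups is 0.70 to 0.83, and 4 pairs of Olr1678 lie at 0.01 on both axes.

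The 32 called regions stood in 14 clusters, and how they spread over them was not tested. The chromosome 10 cluster of 40 regions (44095707 to 45901798) held 6 of the 32, of 32 tested, Olr1414, Olr1428, Olr1433, Olr1434, Olr1437 and Olr1454, with r between 0.40 and 0.57. With the library-number blocks 3 of the 6 were called, Olr1414, Olr1434 and Olr1454. The chromosome 20 cluster of 56 held 5 of 43 tested, Olr1678, Olr1680, Olr1697, Olr1704 and Olr1705, and with the blocks 1 of them was called, Olr1678. Olr1680 was without a read at both times in 5 numbers. The chromosome 7 cluster of 82 held 4 of 26 tested, Olr876, Olr937, Olr951 and Olr962, and with the blocks 2 were called, Olr937 and Olr951. The largest cluster, with 219 regions on chromosome 3, held 2 of 159 tested, Olr540 and Olr694, and with the blocks 0.

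Absence of reads at both times in a region that otherwise had signal was rare. Of the 550 receptor regions with a mean of 10 or more, 3 (0.545%) had a number without a read at both times, against 11 of 14190 other regions (0.0775%). These shares are not matched for level, as 192 of the 550 had a mean of 10 to 20, against 1658 of the 14190. The 3 were Olr1678 with 4 such numbers, Olr937 with 3, and Olr1608 on chromosome 15 with 1. They were singled out after their values were seen. A region without a read cannot show whether it is unmethylated, absent or unreadable in that library, and this was not tested.

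The authors' deposited table of peaks sets DEN 30 mg/kg against phenobarbital at 5w and 11w. Here 5w is taken as partial hepatectomy and 11w as terminal euthanasia. It lists 36231 peaks, and 53 of them overlapped an olfactory receptor region by at least 1 base, in 51 regions (4.24%), against 7.22% of the other regions. At 5w, 42 receptor regions had a peak higher in DEN 30 mg/kg (3.49%, against 5.44% of other regions) and 1 a lower one (0.0831%, against 0.420%). At 11w 3 had a higher peak (0.249%, against 0.576%) and 6 a lower one (0.498%, against 0.983%). In the authors' deposited table the highest enrichment factors were those of peaks at 5w over Olr286 and Olr1280, each with 22 reads in DEN 30 mg/kg and 1 in the control set, then Olr103 with 20 and 1, Olr777 with 18 and 1, Olr329 with 17 and 1, and Olr86 with 16 and 1. A factor is listed only where both sets have a read. The peaks without one were those of Olr1274, with 22 reads in DEN 30 mg/kg and 0 in the control set at 5w, Olr648, with 15 and 0 at 5w, and Olr315, with 0 and 15 at 11w, named here after their values were seen. The reads of each set stand without replicates there.

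The region values under these peaks did not all follow. Olr329 on chromosome 1 had 4.23, 0.01, 12.5, 15.1 and 2.05 under DEN 30 mg/kg at partial hepatectomy, against 0.01, 0.01, 2.12, 0.01 and 0.01 in the promoted control. Its 2 highest values came from evenly covered libraries, and it averaged 8.75 in those 9 and 1.52 in the 61. Olr1280 on chromosome 8 had 1.06, 5.26, 24, 17.1 and 11.3, against 8.43, 11.1, 10.6, 16.4 and 3.76 in the promoted control, again with its highest pair in DEN 30 mg/kg numbers 3 and 4. Olr286, Olr103, Olr777 and Olr86 also overlapped between the groups.

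In the authors' deposited table of regions, 1.35% to 3.63% of the receptor regions had a p-value below 0.05 in the 12 comparisons with the promoted control, against 2.11% to 5.23% of all regions. At terminal euthanasia the receptor share was higher for thioacetamide (3.02%, all regions 2.32%) and about level for the water control (2.12%, all regions 2.11%). Acetaminophen at that time was about level too (2.94%, all regions 2.96%). In the remaining comparisons the receptor share was lower, and this was not tested. These p-values were not adjusted.

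The other genes of the pathway were taken from a list of 23 that act downstream of the receptors, move them to the membrane or set their choice. Of these, 21 had a region, all 21 were tested, and 0 passed in either direction in the 14 contrasts, between the times or in the number test. Of all regions limma called 0% in each contrast, 0.0671% between the times and 1.40% in the number test. A count of 0 among 21 is thus no result about these genes. Their median level was 65.6. Gnal, the G protein alpha subunit of olfactory neurons, had 307 ± 63.5 (SD, n = 70), and Omp, the marker protein of mature olfactory neurons, had 273 ± 60.3. Stoml3, a membrane protein of olfactory cilia, had 234 ± 41.7, and Cnga2, a subunit of the transduction channel, had 38.4 ± 14.5. Lhx2 and Emx2, homeodomain factors that act on receptor promoters in the mouse, had 12.5 ± 9.32 and 11.7 ± 10.4. Rtp1, which carries receptors to the cell surface, had 120 ± 25.3. Marker regions of the liver's cells did not pass in any contrast either, where limma called 0% of all regions. Their medians were 60.8 over 14 regions of leukocyte genes (13 tested, with 5 of Ptprc at 1 value) and 55.6 over 5 of hepatocyte genes.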

How the data were processed

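Rat liver DNA was enriched with the MethylMiner kit, made into fragment libraries with inserts of about 250 bp and read on a SOLiD 4, per the labels' protocols. The authors deposited 1 region table per time, whose signal is reads over each region scaled to 50 M, with 0.01 where there was no read, as found by testing all 70 columns. Dividing by each library's step gave whole reads for 100% of values within a tolerance of 0.01. The sources used here give no aligner, no build and no account of what the scaling total counts. Coordinates of regions are those of the files. The deposited p-value columns are the authors' own, and their deposited peak list holds read counts, a signal density and an enrichment ratio.

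The regions were found through their symbols, and groups came from titles and labels. The members, gene lists and tests were chosen with earlier results of these data known, and a list, rule or test here is no independent support for a pattern. limma 3.58.1 in R 4.3.3 was fitted on log2(signal + 1) with a trend in the variance over all regions where at least 5 libraries reached 10, with Benjamini-Hochberg adjustment over all tested regions and a threshold of 0.05. All 7 groups of a time shared 1 estimate of the spread. edgeR 4.0.16 and DESeq2 1.42.0 were run on recovered reads as alternatives, and the scripts were tested on simulated data. The fold change of a low region is understated on the log2(signal + 1) scale.

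Regions named in the text are the 5 highest and 5 lowest in mean, the 5 tested ones of largest SD, the lowest-p region per direction in each contrast, the 8 smallest p of the number test, the 6 peaks of highest enrichment factor, and members of clusters holding at least 2 regions named by a contrast or the number test. With 9 regions tied at the lowest level, all 9 were named. Promoter sequences and symbols come from RefSeq (GRCr8), and 1188 of 1204 receptor transcripts matched by accession. Depth was 23543 to 36980 reads over the receptor regions per library, so a region at a signal of 10 rests on about 10 reads.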

Additional observations from a re-analysis of the deposited data

Results flagged for a closer look

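Within each group of 5, the library medians and read shares of the receptor regions were searched for a value far from the rest, and so were the regions named in the contrasts in the groups compared. Chance alone marks about 1 in 20 groups. Of 28 library values, 9 were marked, and 8 of these came from evenly covered libraries.

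The median receptor signal was 14.4 in methapyrilene number 3 at terminal euthanasia, 19.4 in acetaminophen number 5 at partial hepatectomy and 17.2 in water-control number 5 at partial hepatectomy, each the highest of its group. The receptor share of region reads was also the highest of its group in 6 libraries. It was 2.62% in thioacetamide number 4, 2.60% in methapyrilene number 3 and 2.63% in acetaminophen number 3 at terminal euthanasia. At partial hepatectomy it was 2.96% in acetaminophen number 5, 2.41% in DEN 3 mg/kg number 5, which is not an evenly covered library, and 3.01% in water-control number 5.

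Of 53 values of named regions, 5 were marked. Olr586 had 26 in DEN 3 mg/kg number 5 at partial hepatectomy, the highest of its group, and Olr1461 had 88.0 in DEN 3 mg/kg number 3, the lowest. Olr1454 had 16.4 in promoted-control number 4 at partial hepatectomy, the lowest. At terminal euthanasia Olr1437 had 17 in DEN 30 mg/kg number 3, an evenly covered library, and Olr675 had 1.18 in DEN 3 mg/kg number 2, a single read, where the other 4 had none.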

How the results depend on the processing

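The 14 contrasts kept a count of 0 receptor regions in all 266 refits with another pseudocount, no filter, quantile normalization, edgeR, DESeq2, the replicate block, library blocks or libraries left out. The comparison of the times gave 1 receptor region with quantile normalization and 0 otherwise, the log2 difference of that region (Olr655, terminal minus hepatectomy) being -0.61. The number test, with 32 receptor regions (3.54%, where all regions gave 1.40%), gave 19 with a pseudocount of 10 (2.10%, all regions 1.09%), 17 with no filter (1.41%, all regions 0.594%), 18 with quantile normalization (1.99%, all regions 0.928%) and 11 with library blocks (1.22%, all regions 0.659%). It gave 11 to 27 with each replicate number left out (1.22% to 2.98%, all regions 0.647% to 1.34%). It gave 53 (5.86%, all regions 4.06%) without water-control number 4 and acetaminophen numbers 3 and 5. These were picked after seeing the match, so that rise is no support. Olr799, Olr1678, Olr1592 and Olr937 passed in all 13 alternatives. No direction of a named region reversed. The number of clusters was 79 with a gap of 200 kb. The cause of these shifts was not tested.

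With the replicate block, where the number of the titles enters each contrast as a block, the count of receptor regions stayed at 0 in each contrast. The same-numbered libraries of different conditions share the number, and many of them also lie in the same block of library numbers. The replicate block thus does not fully separate number from library block. Over all tested receptor regions the own number was the best match across times in 23 of 35 cases, and over the other tested regions in 22 of 35. In thioacetamide it was the best match in 1 of 5 cases for each set. The receptor medians rest on few reads, since 1 read is worth about 1 unit and 54.3% of the receptor regions had a mean under 10.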
